A study of Mus musculus with 4 samples.

Results

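Foxo1 was mapped in mouse CD4+ T cells by chromatin immunoprecipitation followed by sequencing (ChIP-seq), and the sites described here are the isolated ones that were called with the antibody and not with biotinylated Foxo1. A site belonged to this set when its peak in the antibody list shared no base with any peak of the biotin list and no other antibody peak started within 10000 bp of its own start. Of the 2507 antibody peaks, 1768 met the rule (70.5%, exact 95% interval 68.7 to 72.3%). The antibody library came from CD4+ cells of C57BL/6 mice, with DNA recovered by an antibody against the endogenous Foxo1. The biotin library came from CD4+ cells of mice of the same labelled strain that carry a tagged Foxo1 and birA, whose product is a ligase that joins biotin to the tag, and the bound DNA was captured with streptavidin, to which biotin binds. The sources used here give neither age nor sex, nor whether animals were pooled. Each group was 1 library, so a peak listed for one isolation and not for the other is a difference between lists made from different mice, captures and libraries, and these cannot be told apart.

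Foxo1 is a forkhead transcription factor. It binds DNA in the nucleus of resting lymphocytes and is moved to the cytoplasm when signalling through PI3K and Akt phosphorylates it. In T cells it is known for controlling genes of homing to lymph nodes, of survival through the interleukin 7 receptor and of quiescence. A ChIP-seq peak marks a stretch where DNA fragments recovered with the protein pile up, and it does not by itself show that a nearby gene is controlled. Positions below count from 1 and follow the mouse build mm9. They were not assigned to genes, and the sequence under them was not analysed here, because the gene and promoter tables used here follow another build. For the same reason the labelled cell type was not checked at the loci of T cell markers.

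The rule used 2 properties of a peak, and the shares they leave are a description of the choice. Of all antibody peaks, 13.6% shared a base with a biotin peak and 80.9% had no other antibody start within 10000 bp. The other antibody peaks were 398 antibody-only peaks with a close neighbour, called clustered here, 261 isolated peaks with a biotin partner and 80 clustered peaks with one. A partner was missing for 87.1% of the 2029 isolated antibody peaks (85.6 to 88.6%) and for 83.3% of the 478 clustered ones (79.6 to 86.5%). The deposited list attached to the antibody input held 682 intervals taken from both ChIP lists, and none of the 1768 was among them. Antibody peaks with a biotin partner numbered 341, as did biotin peaks with an antibody partner. Together they equal the count of that list. The absence of the sites from it is therefore taken as fixed by the rule and not as a result.

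Isolated antibody-only sites had a lower median fold than the antibody peaks with a biotin partner. The fold that the authors give for each peak, a linear ratio to a reference that the sources used here do not name, had a median of 8.89 (quartiles 6.81 and 12.0, range 3.01 to 40.7) over the 1768 sites. Over all 2507 antibody peaks the median was 9.43. The sites are 70.5% of that list, so the closeness of both medians follows in part from this share. Clustered antibody-only peaks had a median fold of 8.67 (6.75 and 11.8, n = 398), so the presence of a neighbour went with little difference in fold among peaks without a partner. Isolated peaks with a biotin partner had a median fold of 17.6 (11.1 and 25.8, n = 261), and clustered peaks with one had 19.8 (12.5 and 28.5, n = 80). The partner entered the rule and the classes come from 1 library, so these medians are given without a test.

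**Figure D1:**
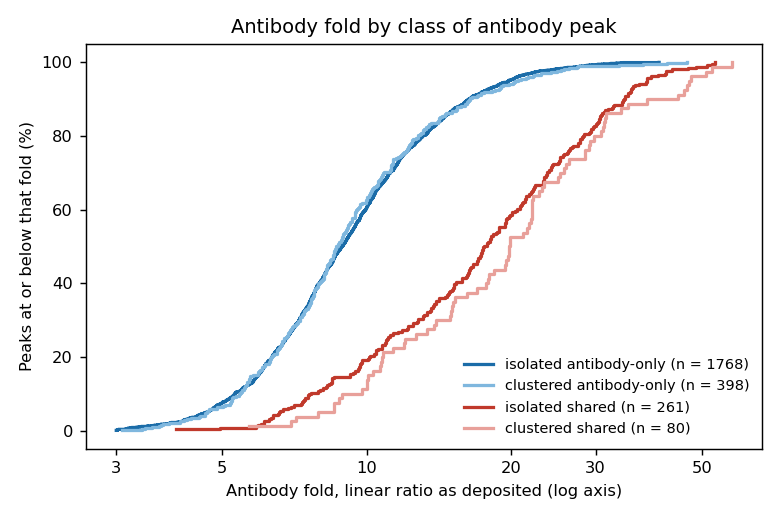
Cumulative share of peaks (vertical axis, percent) at or below each antibody fold (horizontal log axis) for the 4 classes of antibody peaks. The curves of isolated and clustered antibody-only peaks run together around medians of 8.89 and 8.67, and those of the shared classes lie to the right, around 17.6 and 19.8.

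The upper tail of the set reached folds that made up a larger share of the isolated peaks with a partner. A fold of at least 20 was listed for 84 of the 1768 sites (4.75%, 3.81 to 5.85%), against 10.1% of all antibody peaks and 41.4% of isolated shared peaks (108 of 261). A fold of at least 30 was listed for 11 sites (0.622%), against 3.03% of all antibody peaks. The sites made up 19 of the 100 antibody peaks with the highest fold and 82 of the highest 250. From the other side, 137 sites (7.75%) had a fold at or above the median of isolated shared peaks, and 38 isolated shared peaks (14.6%) had a fold below the median of the sites. The fold ranges of both classes therefore overlapped widely.

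Among isolated antibody peaks, the share without a biotin partner was lower in each higher class of fold. It was 98.5% (94.7 to 99.8%, 132 of 134 peaks) at folds of 3 to under 5, and 95.6% (458 of 479) at 5 to under 7.5. At folds of 10 to under 15 it was 90.5% (87.6 to 92.9%, 465 of 514). The decline was steeper above this. The share was 73.7% (67.1 to 79.5%, 151 of 205) at 15 to under 20 and 58.9% (48.0 to 69.2%, 53 of 90) at 20 to under 25. At 25 to under 30 it was 43.5% (28.9 to 58.9%, 20 of 46). At 30 and above it was 19.6% (10.2 to 32.4%, 11 of 56). Clustered antibody peaks had a similar order, with 95.2% without a partner at folds of 7.5 to under 10 (118 of 124) and 4 of 20 at 30 and above. The intervals cover counting error over peaks only, and peaks of 1 library are not replicates.

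**Figure D2:**
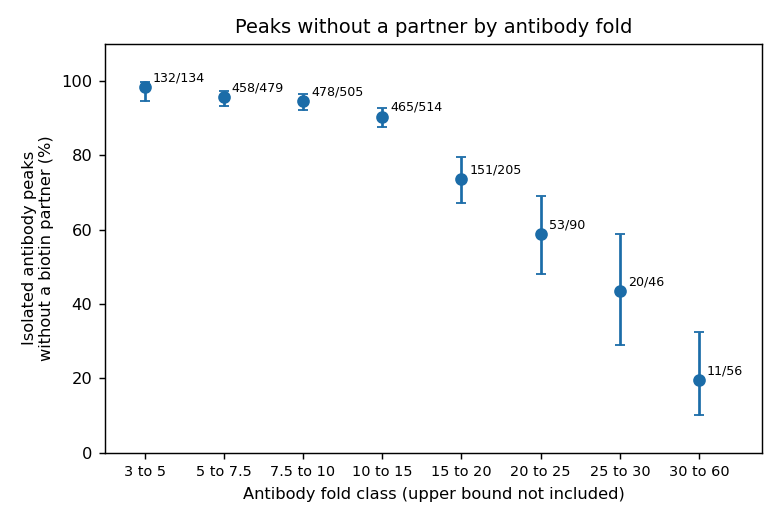
Share of isolated antibody peaks without a biotin partner (vertical axis, percent) in 8 classes of antibody fold (horizontal axis), with exact 95% intervals as bars and the counts beside each point. The share goes from 98.5% in the lowest class to 19.6% in the highest.

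The site with the highest fold was chr8:72758355-72758441, 87 bp wide, with a fold of 40.7 and rank 20 in the antibody list. Its nearest antibody peak started 21835 bp away and its nearest biotin peak lay 609114 bp away. The next in order was chr9:88442952-88442960, a peak of 9 bp with a fold of 34.2. The next antibody start was 5573960 bp from it. The third, chr8:127421675-127421698, had a fold of 33.9 over 24 bp, and its nearest biotin peak was 876316 bp away.

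The fourth site by fold differed from these in its surroundings. It lay at chr2:181572559-181572585 with a fold of 33.3, and a biotin peak with a fold of 8.18 lay across a gap of 36 bp. A comparable case was chr4:59344601-59344683, with a fold of 28.1 and a biotin peak of fold 7.76 across a gap of 39 bp. Of the 20 sites with the highest fold, this pair alone had a biotin peak within 1000 bp, and 17 had none within 100000 bp. Over all 1768 sites, 2.21% had a biotin peak within 1000 bp and 20.2% had one within 100000 bp. Most sites of any fold therefore had none within 100000 bp.

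Other sites of the highest 20 were chr15:97408670-97408678 with a fold of 33.1, chr4:154937857-154937941 with 32.2 and chr2:32023542-32023611 with 32.2. On chromosome 1 the strongest site was chr1:187027916-187027982, with a fold of 31.3. Chromosome 7 held chr7:29225959-29225969 with a fold of 30.9 and chr7:112959701-112959735 with 30.4. The site chr13:14705397-14705403 was 7 bp wide with a fold of 30.2, and its nearest biotin peak was 9991254 bp away. The 11 sites with folds of at least 30 lay on 8 chromosomes.

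The remaining sites of the highest 20 had folds from 27.7 to 29.6. Chromosome 10 held chr10:21625596-21625680 (fold 29.6) and chromosome 19 held chr19:43605693-43605734 (29.1). On chromosome 9, chr9:32513890-32513977 had a fold of 29.2. Further sites were chr8:72877256-72877268 (28.8), chr1:141318720-141318774 (28.6), chr11:95218200-95218269 (28.5) and chr5:116081839-116081898 (27.8). The last in this order was chr8:26384928-26385045 (27.7), so that chromosome 8 held 4 of the 20. Their widths ran from 7 to 118 bp, and 7 of them were at most 30 bp wide.

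The sites with the lowest folds included both wide calls and calls of a few bases. The lowest fold of the whole antibody list, 3.01, belonged to chr8:73278433-73278437, a peak of 5 bp. The next was chr1:51991423-51991637, with a fold of 3.02 over 215 bp, followed by chr14:55137570-55137794, with 3.02 over 225 bp. The fourth and the fifth, chr12:98365947-98365948 and chr9:94090130-94090131, had folds of 3.03 over 2 bp each. Low folds were thus found both in the widest calls and in calls of a few bases.

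Width and fold went in opposite directions over most of the set. The sites had a median width of 92 bp (quartiles 63 and 120 bp, range 1 to 508 bp), against 90 bp over all antibody peaks and 85 bp in isolated shared peaks. Spearman's rho between fold and width was -0.48 across the 1768 sites and -0.41 across the 261 isolated shared peaks. This is a description across peaks of 1 library, and both values come from the same call. Sites of 61 to 90 bp had a median fold of 9.93 (n = 459), those of 121 to 160 bp had 6.91 (n = 271) and those wider than 160 bp had 6.08 (n = 165). The widest site, chr19:32349776-32350283 with 508 bp, had a fold of 3.71, and the 8 sites wider than 300 bp had folds from 3.71 to 8.13.

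The lower fold of sites without a partner was seen in each of 8 width classes. At 61 to 90 bp the median was 9.93 for the sites and 18.3 for isolated shared peaks (n = 63). At 91 to 120 bp it was 8.43 (n = 460) and 17.7 (n = 80). For the widest peaks, over 160 bp, the medians were closer, 6.08 and 6.58, the latter over 11 peaks. At 11 to 20 bp they were 14.8 (n = 52) and 24.5 (n = 24).

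The narrowest calls fell into low and high folds with little between. Widths of at most 10 bp were listed for 31 sites (1.75%), close to the 1.72% of all antibody peaks. Of these, 17 had folds from 3.01 to 3.91, 13 had folds of 10 or more, up to 34.2, and 1 lay between. Peaks of at most 5 bp numbered 23 in the antibody list, of which 19 were isolated antibody-only sites, 4 were clustered antibody-only peaks and 0 had a biotin partner. Of all antibody peaks, 13.6% had one. The 19 had a median fold of 3.22 and a range of 3.01 to 20.2, and the 4 had folds from 3.09 to 4.08. At folds of 3 to under 5, 132 of 134 isolated antibody peaks of any width had no partner. A peak of a few bases also has less length in which to share a base with another peak. The part of width or of fold in the missing partners was not tested. Sites of 6 to 25 bp (n = 79) had a median fold of 15.0. Widths of 26 to 33 bp were listed for 21 sites and widths of 34 to 60 bp for 294. These classes cover unequal numbers of bases, so their counts cannot be compared directly.

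**Figure D3:**
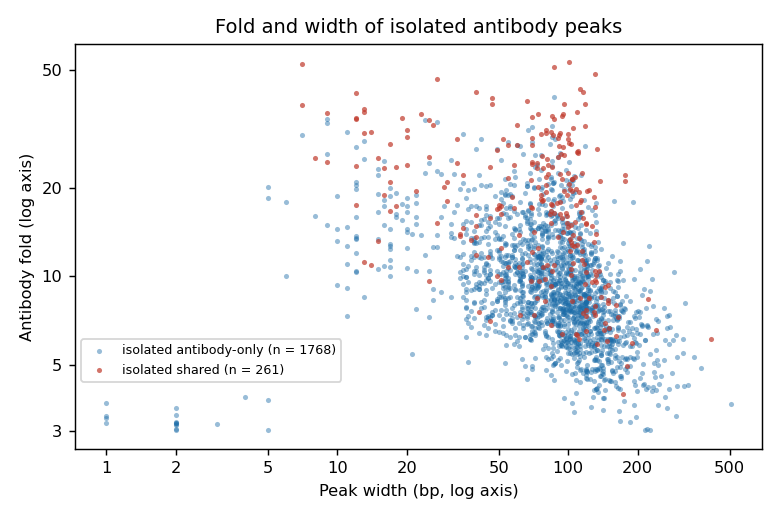
Antibody fold against peak width, both on log axes, for the 1768 isolated antibody-only peaks (blue) and the 261 isolated shared peaks (red), 1 point per peak. A main cloud in which fold is lower at greater width is joined by narrow peaks of 6 to 25 bp with high folds and by 17 blue points of at most 5 bp with folds under 4.

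The p-values that the authors list differed between the classes at both ends. A p-value of 0 was listed for 254 sites (14.4%, 12.8 to 16.1%), against 16.2% of all antibody peaks, 16.3% of clustered antibody-only peaks, 23.4% of isolated shared peaks (61 of 261) and 32.5% of clustered shared peaks (26 of 80). A p-value above 1e-12, near the upper limit of the list, was given for 251 sites (14.2%), for 66 clustered antibody-only peaks (16.6%), for 6 isolated shared peaks (2.30%, 0.848 to 4.94%) and for 1 clustered shared peak (1.25%). The summit, the base of highest signal, lay past the centre of the peak towards higher coordinates in 1038 sites (58.7%, 56.4 to 61.0%), and it did so in 58.8% of all antibody peaks.

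A small number of the sites lay next to a biotin peak without touching it. The nearest biotin peak was within 1000 bp for 39 of the 1768 sites (2.21%, 1.57 to 3.00%), against 3.97% of all antibody-only peaks and 11.8% of the clustered ones (47 of 398). For 21 of the 39 the gap was at most 100 bp. Within 10000 bp the count was 62 (3.51%, 2.70 to 4.47%), against 7.48% of all antibody-only peaks and 25.1% of the clustered ones (100 of 398). The rule removes part of these cases by construction, since a biotin peak within 10000 bp that has its own antibody partner nearby would make the site clustered. The biotin peak overlapped another antibody peak for 0 of the 62.

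The 21 sites with a biotin peak within 100 bp had a higher median fold and a lower median width than the set. Their antibody folds had a median of 15.5 (quartiles 13.6 and 19.6, range 3.73 to 33.3), against 8.82 (6.77 and 11.8) for the 1729 sites with no biotin peak within 1000 bp. Their median width was 27 bp, against 92 bp for all sites. A peak this close to a biotin peak is kept only if they share no base, so the rule itself favours narrow calls here. Fold also goes with width: all sites of 21 to 40 bp had a median fold of 11.9 (n = 100). The folds were not compared at equal width. The 18 sites with a biotin peak more than 100 and up to 1000 bp away had a median fold of 11.3 (9.42 and 16.5), and the 23 with one more than 1000 and up to 10000 bp away had 7.48 (5.86 and 9.87). Beyond 10000 bp the median fold varied little with the gap, from 8.44 up to 50000 bp (n = 141) to 9.14 at 50000 to 100000 bp (n = 155) and 8.51 beyond 1000000 bp (n = 635). Among the sites with a fold of at least 20, 8 of 84 had a biotin peak within 1000 bp (9.52%, 4.20 to 17.9%), and among those with a fold under 10 it was 7 of 1068 (0.655%, 0.264 to 1.35%).

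**Figure D4:**
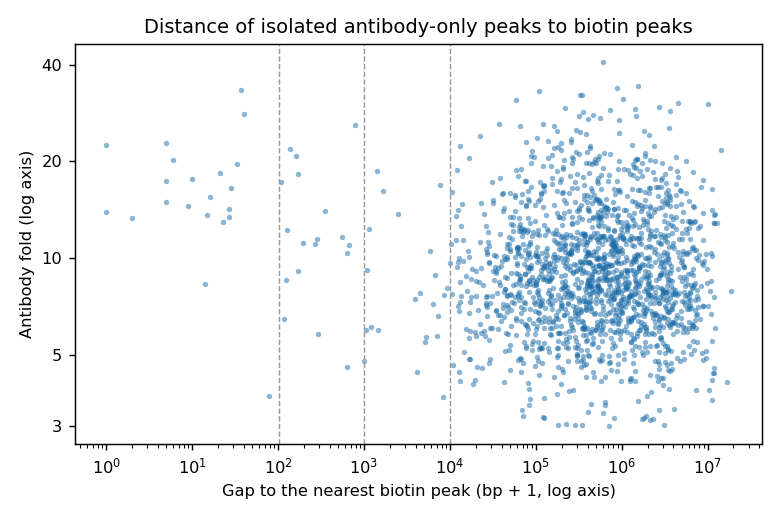
Antibody fold (vertical log axis) of each isolated antibody-only peak against the gap to its nearest biotin peak (horizontal log axis, bp plus 1), with dashed lines at 100, 1000 and 10000 bp. The 21 points left of the first line have a median fold of 15.5, few points lie between 1000 and 10000 bp, and the main cloud lies beyond 10000 bp.

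In a pair of these sites the antibody peak and the biotin peak abutted, with a gap of 0 bp. One was chr11:75780142-75780165, a peak of antibody fold 22.4 next to a biotin peak of fold 15.1, and the summits of both were 32 bp apart. The other was chr4:153535017-153535037, whose antibody fold was 14.0, beside a biotin fold of 9.40 and summits 27 bp apart. At chr11:117824832-117824900 a gap of 1 bp separated an antibody peak of fold 13.3 from a biotin peak of fold 9.10. On chromosome 7 the site chr7:121461119-121461145 had an antibody fold of 22.8, a gap of 4 bp and a summit 19 bp from that of its biotin neighbour, the shortest summit distance of the set.

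Across the 21 sites the summits of the neighbouring peaks were 19 to 140 bp apart, with a median of 52 bp. The 261 isolated shared pairs had a median summit distance of 19 bp (quartiles 10 and 38 bp, range 0 to 205 bp). Of the 21, 14 had summits at most 60 bp apart, as did 227 of the 261 pairs (87.0%). By the rule the 21 share no base with their neighbour and the 261 pairs do. A greater summit distance among the 21 therefore follows at least in part from the choice. The biotin neighbours had a median fold of 7.56 (5.93 and 8.60). Biotin peaks with an antibody partner had a median fold of 6.82 (4.84 and 9.11, n = 341) and those without one had 5.08 (3.97 and 6.18, n = 382). The lowest antibody fold among the 21 was that of chr4:133310430-133310430, a call of 1 bp with a fold of 3.73 and a biotin peak of fold 8.59 across a gap of 78 bp. The next lowest was chr9:18096474-18096560, with a fold of 8.33 over 87 bp and summits 123 bp apart.

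Peaks on either side of the limits of the rule had a wide range of folds. The isolated shared peaks with the smallest overlap had 2 bases in common with their partner. They were chr5:87233281-87233287 with a fold of 52.4, chr2:25110955-25110966 with 34.3 and chr13:113217871-113217905 with 14.6. An overlap of 4 bases was found at chr17:29629953-29629979, with a fold of 15.2, and at chr13:53025046-53025071, with 32.7. Just inside were the abutting sites and the one with a gap of 1 bp given above, followed by chr15:79713936-79713951, with a fold of 17.4, and chr3:51288083-51288177, with 15.0, each 4 bp from a biotin peak. At the distance limit, the sites just inside had neighbours whose starts were 10097 bp away (chr8:13676441-13676501, fold 9.67), 10114 bp (chr11:96839212-96839336, fold 7.56) and 10244 bp (chr14:75855806-75855869, fold 11.1). Next came a pair of neighbouring sites 10417 bp apart, chr10:128063840-128063902 with a fold of 5.25 and chr10:128074257-128074373 with 8.72. Just outside was a pair of antibody-only peaks 9977 bp apart, chr18:75537202-75537285 with a fold of 6.89 and chr18:75547179-75547265 with 11.3. They were followed by antibody-only peaks with neighbours at 9692 bp (chr11:52079351-52079386, fold 6.63), 9665 bp (chr7:134160811-134160893, fold 7.64) and 9625 bp (chr5:34529726-34529831, fold 8.25). These values describe both limits and were not tested.

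The distance to the next antibody start was used by the rule, so its lower end is fixed by the choice. It had a median of 132686 bp over the sites (quartiles 51178.5 and 371718.5 bp), beside 114574 bp for isolated shared peaks, which meet the same limit, and 86395 bp over all antibody peaks. For the sites, the nearest biotin peak was a median of 529477.5 bp away. Fold had almost no rank relation with the distance to the next antibody start (rho = 0.00 across the 1768 sites) or with the gap to the nearest biotin peak (rho = -0.04). The nearest antibody peak was another member of the set for 1354 sites (76.6%, 74.5 to 78.5%), while the set is 70.5% of all antibody peaks. It was an isolated shared peak for 227 sites (12.8%, 11.3 to 14.5%), a class that is 10.4% of all antibody peaks. A clustered antibody-only peak was nearest for 8.31%, although that class is 15.9% of the list, and clustered peaks by definition already have a near neighbour of their own. Peaks of a cluster lie close together, so the inner ones are rarely nearest to an isolated site. Shares of the list are therefore an unlike base, above which both isolated classes rise, and an excess of members beside members was not tested.

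The most remote site was chrX:120217011-120217139, with a fold of 4.14 and 14187146 bp to the next antibody start. It was followed by chr5:9100570-9100688, with a fold of 5.53 and 11356994 bp. On chromosome 3, chr3:9974537-9974548 had a fold of 13.4 at 9336775 bp from the next start. The site chr4:83171225-83171308, with a fold of 21.7 and rank 202, had its nearest biotin peak 14267731 bp away. Remoteness thus occurred at low and at high folds. Distance from other antibody peaks did not always mean distance from biotin peaks. The site chr1:6204649-6204784, with a fold of 9.11, was 7053003 bp from the next antibody start and had a biotin peak of fold 4.23 across a gap of 168 bp, and chrX:147955276-147955286, with a fold of 11.0, was 6994471 bp from the next start and 266 bp from a biotin peak of fold 6.70.

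In places many such sites followed one another. The longest run of antibody peaks that all belonged to the set was on chromosome 10, with 32 in a row from 58785930 to 79538306 and folds from 4.27 to 21.0. A run of 27 on chromosome 3 (52422297 to 89664131) and one of 26 on chromosome 15 (65558712 to 78602378) came next. The biotin list had 6, 8 and 2 peaks inside these runs, which by definition of a run overlap no antibody peak there.

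The densest stretch of 1 Mb held 13 sites, at chr10:79422758-80318016. Their folds ran from 4.56 to 21.0 with a median of 9.44, and their widths from 12 to 238 bp. The highest was chr10:79422758-79422769 with a fold of 21.0, followed by chr10:80053080-80053155 with 19.8 and chr10:80317932-80318016 with 16.1. The same stretch held 3 other antibody peaks, 2 of them with a biotin partner, so sites with and without a partner lay side by side. Starts of neighbouring peaks were at least 11746 bp apart for each of the 13.

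A stretch on chromosome 14 (121765427 to 122506342) held 11 sites with a median fold of 7.36, the highest being chr14:122506238-122506342 with 21.1. One on chromosome 15 (75740021 to 76648746) held 10 sites with a median fold of 10.2, the highest being chr15:76147806-76147863 with 22.7. One on chromosome 8 (72566561 to 73389749) also held 10, with a median fold of 11.9 and neither another antibody peak nor a biotin peak inside. It contained the site with the highest fold of the set, 40.7, the site with the lowest, 3.01, and chr8:72877256-72877268 with 28.8. The full span of antibody folds in the set was therefore found within 1 stretch of 823 kb. A stretch on chromosome 2 (90507911 to 91284914) held 9 sites with folds from 4.80 to 15.3.

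By chromosome, the share of antibody peaks that belonged to the set ranged from 60.7% on chromosome 11 (111 of 183, 53.2 to 67.8%) to 79.2% on chromosome 9 (99 of 125, 71.0 to 85.9%), with a median of 71.2% over 20 chromosomes. Chromosome 5 held the most sites, 133. Per Mb of the stretch between the outermost peaks of either list, chromosome 19 had 1.25 sites, chromosome 17 had 1.06 and chromosome 15 had 1.04. The lowest autosome, chromosome 18, had 0.514 per Mb, and the X chromosome had 0.184 (28 sites). Antibody peaks of all classes numbered 93 in 57.5 Mb on chromosome 19, 59 in 81.8 Mb on chromosome 18 and 44 in 152 Mb on X. The order of these 3 chromosomes was thus not particular to the sites. Chromosome 11, lowest in share, had a density of 0.940 per Mb.

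Median folds of the sites differed little between autosomes, from 8.25 on chromosome 1 (quartiles 5.89 and 10.8, n = 112) to 10.2 on chromosome 7 (7.56 and 12.8, n = 89). The X chromosome had the lowest median, 6.62 (5.17 and 10.4, n = 28), against 8.93 (6.86 and 12.0) over the 1740 autosomal sites. The highest fold on X was 14.8, and 8 of its 28 sites (28.6%) had a fold of at least 10, against 39.8% of autosomal sites. The 12 clustered antibody-only X peaks had a median fold of 8.52, beside 8.67 over all clustered antibody-only peaks, and the 4 shared X peaks had one of 15.8. Over all antibody peaks, X also had the lowest median fold of any chromosome, 7.06 (n = 44), against 9.43 over the whole list. The nearest biotin peak was a median of 5553119 bp away from a site on X, where the biotin list held 11 peaks. The part of the number of X copies in these folds was not tested, since the sources used here do not give the sex of the mice.

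**Figure D5:**
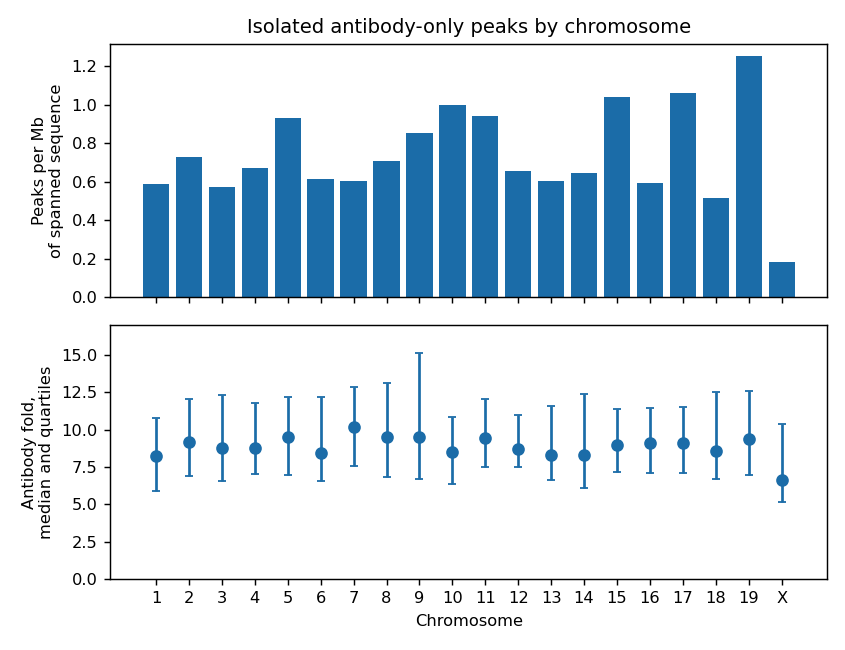
Isolated antibody-only peaks per Mb of the stretch between the outermost peaks (upper panel, bars) and their antibody fold (lower panel, points for the median and bars for the quartiles) on each chromosome. Chromosome 19 is the densest with 1.25 peaks per Mb, and X has both the lowest density (0.184) and the lowest median fold (6.62).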

How the data were processed

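The deposited lists of 2507 antibody and 723 biotin peaks were used, 1 library each, with no list of the biotin input used here. The submitters' processing notes name CASAVA 1.4, Bowtie 0.12.7 and the build mm9. The sources used here do not name the peak caller. Per the file headers, the authors list for each peak a position, width, fold (a linear ratio), p-value and summit. Read counts were not used here, so depth is unknown. Starts were raised by 1 to count from 1. Overlaps, gaps and distances between starts were computed with numpy 2.4.6 and pandas 2.3.3, and exact Clopper-Pearson 95% intervals with scipy 1.17.1. The assignment of peaks to classes was tested on simulated lists. No test was run, because each group has 1 library and the lists chose the members. Members, classes and comparisons were chosen with earlier results of these data known. By the rule for named peaks, the 20 of highest fold and those next to a limit are given. Others were chosen after their values were seen, namely the lowest, widest and most remote peaks, those next to biotin peaks, runs and dense stretches. Planned gene, motif and promoter steps were not run, as no mm9 annotation or genome was used here.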

Additional observations from a re-analysis of the deposited data

How the results depend on the processing

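The count, median fold, median width and share with a biotin peak within 10 kb were recomputed under 6 planned settings and 2 added after seeing the data (isolation by gap, and no peaks narrower than 20 bp). In 25 of 32 comparisons the count stayed within 1.5 times its value, or the value within its 95% interval. Restricting the sites to the 50% of antibody peaks with the highest fold gave 794 sites, a median fold of 12.6, a median width of 74 bp and a share of 4.79%, which follows partly from that choice. The share was 4.59% when a partner had to cover 50% of the shorter peak, 1.33% when a gap of at most 1000 bp made a partner, which removes the nearest cases, and 4.68% with isolation at 5000 bp. No paired analysis was possible because there is a single library in each group, and none could be left out. Settings for gene starts, motifs, masked sequence and gene lists were not run. Without read counts, signal below the limit of a list cannot be told from none.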
